A study of Gallus gallus with 16 samples.

Results

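Genes that mark astrocytes and the interstitial glia of the pineal gland were described pool by pool. They are SOX9, HES5, ID4, VIM, S100B, GJA1, CLU and APOA1. The members were chosen by name, as every array feature (probe) whose symbol in the platform annotation is one of the 8, which gave 10 probes of 15609 and 8 of 12532 genes and unnamed features tested. VIM and APOA1 had 2 probes each and the other 6 genes 1 each. All 10 probes had a value on all 16 arrays, so a filter on missing values removed no member.

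The study asked how light at night and time of day alter RNA in the chick pineal gland. Glands came from male Rhode Island Red chicks 1 week old, and each RNA sample was a pool of 5 to 6 glands, which does not resolve single birds or cells. All control birds lived in 12 h light and 12 h dark, with lights-on named ZT0. In paradigm 1, birds of the same cycle were lit for the last 2 h of the night, ZT22 to ZT24, and killed at ZT0 (late-night light, 4 pools), beside controls left in darkness (ZT0 dark, 4 pools). In paradigm 2, light was given from ZT12 to ZT14 with killing at ZT14 (early-night light, 2 pools), beside 2 pools of controls (ZT14 dark, paradigm 2). Paradigm 3 kept its light birds in long days, for which the sample titles state 17 h of light against 7 h of darkness but the design states 15:9, and they were killed at ZT14 (long day, 2 pools), beside 2 pools of controls (ZT14 dark, paradigm 3). Each pool was hybridised against a common reference made of all 16 pools.

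Every value below is a deposited log ratio between a pool and that reference, taken as log2. The numerator is not stated, so "higher" means a higher deposited ratio, and with the opposite numerator every sign turns together. A ratio gives no level of a gene and does not compare one gene's abundance with another's. A difference is the first group minus the second with its standard error (SE), from a limma fit over all arrays and genes. Genes count as called where the p adjusted over all 12532 genes (Benjamini-Hochberg) is under 0.05. P-values set a difference against the spread between pools within groups. That spread was estimated for each gene over all 6 groups together, so pools of every paradigm enter each p-value.

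Pinealocytes, the photoreceptor-like cells that make melatonin, are the main cell type of the pineal gland, and interstitial cells of glial character lie between them. In mammals these cells carry vimentin and S100 proteins, and some carry GFAP, the intermediate filament of astrocytes. Astrocytes elsewhere in the brain take up transmitter and potassium, couple through gap junctions and secrete lipoproteins, and their identity is maintained by transcription factors that include SOX9 and by Notch and BMP signals. In whole glands, fewer glial cells and less RNA per glial cell cannot be told apart.

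The label of glia could be checked only in part. GFAP, AQP4, SLC1A3, GLUL, FABP7 and ALDH1L1, which define astrocytes in mammals, were not analysed here. The glutamate transporter SLC1A2 was measured, and ratios to a pineal reference show how pools differ, not whether a gene is expressed. Of the 8 members several are also made by other cells (VIM by fibroblasts and endothelium, CLU and APOA1 by many tissues).

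The arrays of paradigm 3 stood apart. Over all probes the SD of the log ratio was 0.820 to 1.08 on these 4 arrays, 0.391 to 0.510 in paradigm 2 and 0.248 to 0.546 in paradigm 1. Paradigm 3 arrays correlated at 0.507 or more with one another and at -0.29 to -0.0677 with those of paradigm 1. Between 15554 and 15603 probes were measured per array. ZT0 pools belong to paradigm 1 and ZT14 pools to paradigms 2 and 3, so time of day and paradigm cannot be told apart. Time-of-day differences in darkness are given with and without paradigm 3.

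None of the 8 genes passed the limma test after light in any paradigm. After late-night light 0 of 8 were called, as were 0 of all 12532 genes (0%, with 527 genes and 0 members at an unadjusted p under 0.05). After early-night light 0 of 8 were called against 0.00798% of all genes, and before adjustment HES5 alone passed 0.05. In the long day 0 of 8 were called against 2.94% of all genes. Before adjustment SOX9 alone of the 8 passed 0.05, against 17.8% of all genes. The median difference over the 8 genes was 0.0064, 0.27 and 0.24 in these comparisons, and the median over all genes was -0.00395, 0.000383 and -0.00685. Sign aside, the median size of a difference was 0.054, 0.27 and 0.24 over the 8 genes and 0.14, 0.18 and 0.30 over all genes. Positive differences numbered 4, 6 and 7 of the 8, against 49.1%, 50.1% and 49.2% of all genes. The 8 genes were read on the same arrays, so their signs are not independent.

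Other comparisons called 2 members. SOX9 was higher in ZT0 dark than in ZT14 dark pools, where 19% of all genes were called, and HES5 was higher in the dark controls of paradigm 3 than in those of paradigm 2, where 20.6% were called. With 1 of 8 members called in each, both shares lie below that of all genes. The light groups of both times (late-night minus early-night light) gave 0 of 8 members against 0.0878% of all genes. The light effects themselves differed in 0 of 8 members between late and early night (background 0.0399%), between long day and early night (0.0239%) and between late night and long day (0.878%). At an unadjusted p under 0.05 these 4 comparisons held 1, 0, 0 and 1 members, against 9.46%, 4.12%, 10.5% and 13.9% of all genes. The comparisons share control pools (the ZT14 dark pools of paradigm 3 enter the long day, time-of-day and dark-control comparisons), so their values are given side by side.

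**Figure D1:**
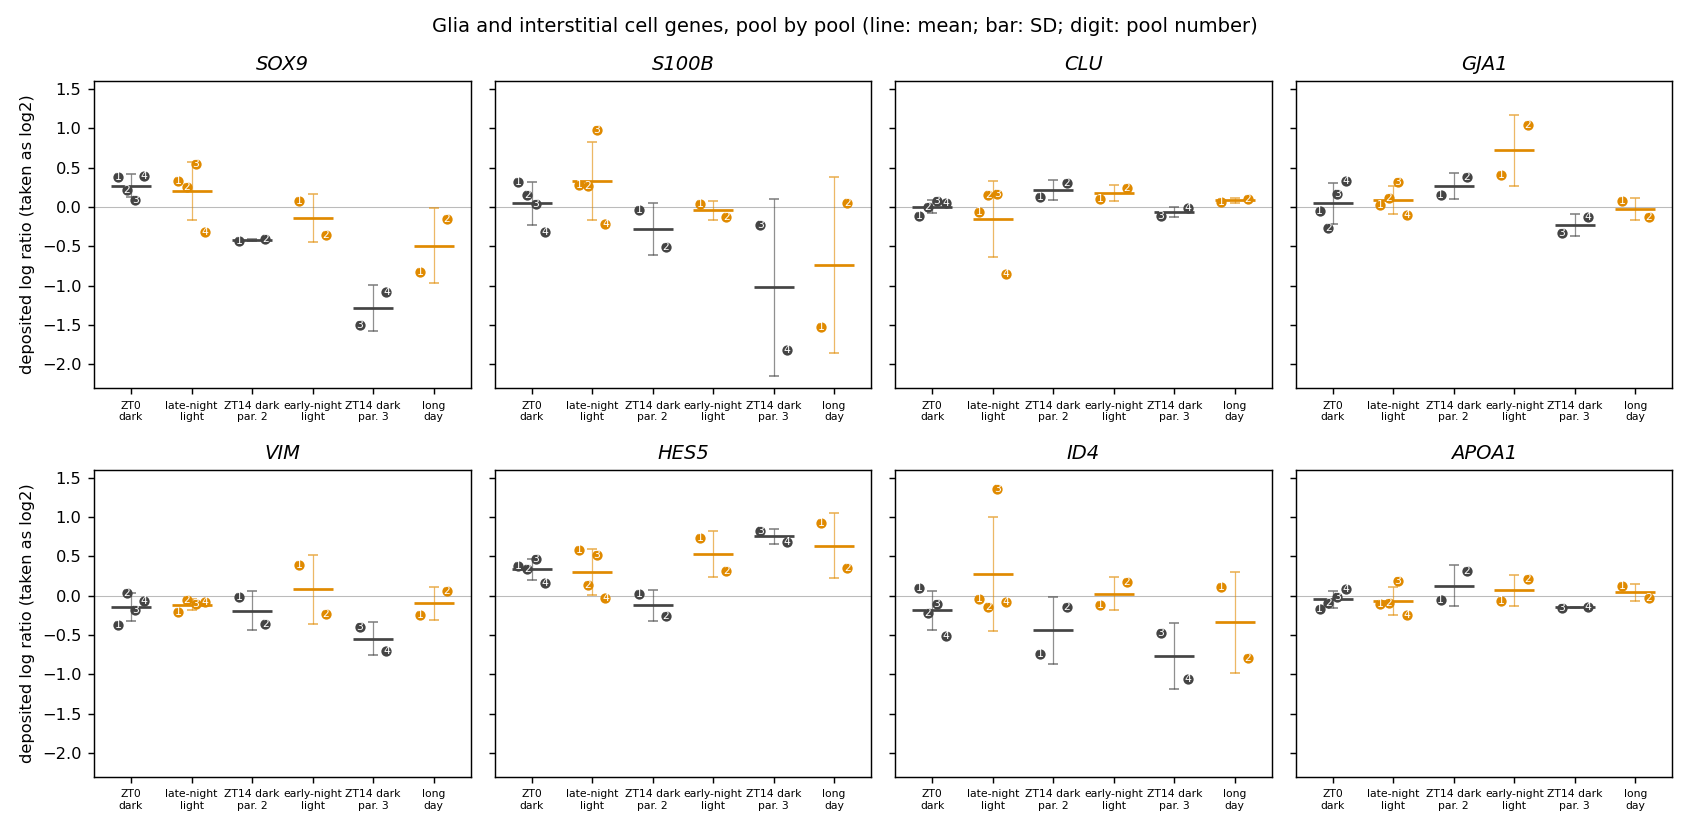
Deposited log ratio (taken as log2) of each gene in every pool, by group; numbered points are pools, lines group means and bars SD, with light groups in orange and dark groups in grey. SOX9 lies lowest in the paradigm 3 dark pools (-1.50 and -1.08), and ID4 has a single high point of 1.36 in late-night light.

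**Figure D2:**
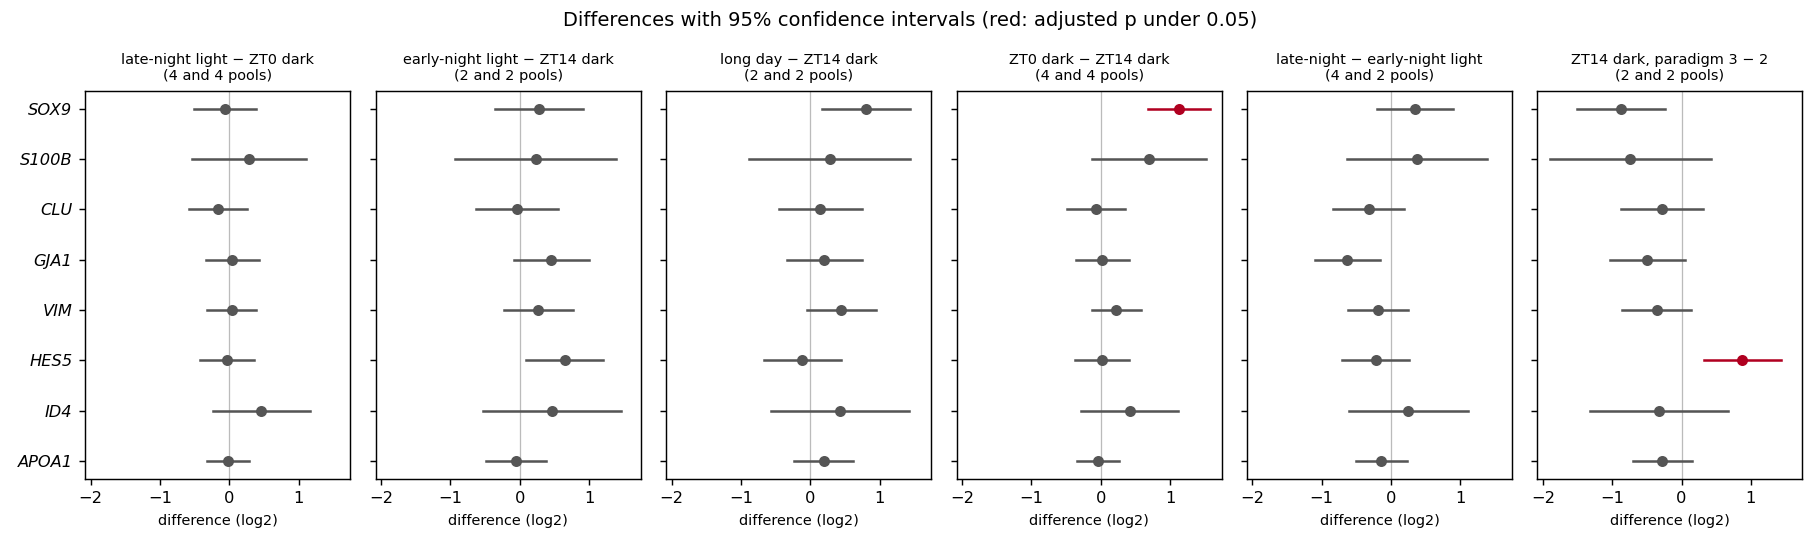
Differences in log2 units with 95% confidence intervals for the 8 genes in 6 comparisons; red marks an adjusted p under 0.05. Only SOX9 for time of day in darkness (1.12) and HES5 between the dark controls of paradigms 3 and 2 (0.87) are red.

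SOX9, a transcription factor of the SRY-box family that directs and keeps glial identity, had ratios of 0.38, 0.22, 0.08 and 0.39 in the ZT0 dark pools. It stood at -0.43 and -0.41 in the ZT14 dark pools of paradigm 2 and at -1.50 and -1.08 in those of paradigm 3. All 4 ZT0 pools lay above all 4 ZT14 pools, a separation that 12.9% of all genes showed. SOX9 was the only member without overlap here. The means were 0.27 ± 0.15 (SD, n = 4) at ZT0, -0.42 ± 0.01 (SD, n = 2) in paradigm 2 and -1.29 ± 0.29 (SD, n = 2) in paradigm 3. The time-of-day difference was 1.12 ± 0.21 (limma, adjusted p = 0.00338), a 2.18-fold ratio with a 95% interval of 0.676 to 1.57 on the log2 scale, and 3.21% of all genes had a p as small.

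The size of this SOX9 difference depended on which ZT14 controls were used. Against the paradigm 3 controls alone it was 1.56 ± 0.25 (limma adjusted p = 0.000516), and against those of paradigm 2 alone 0.69 ± 0.25 (limma adjusted p = 0.402). With all paradigm 3 arrays left out, a setting added after the data were seen, it was 0.69 ± 0.22 (limma adjusted p = 0.223), and only 0.0633% of all genes were then called. The sign stayed positive and the 4 ZT0 pools stayed above the 2 remaining ZT14 pools. Both follow from the separation from all 4 ZT14 pools given above. The share of all genes with this smaller split was not counted.

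By group mean the light groups kept a similar order for SOX9, but their pools overlapped. Late-night light pools stood at 0.33, 0.25, 0.55 and -0.32, early-night light pools at 0.08 and -0.36, and long day pools at -0.83 and -0.15. Late-night light did not separate from its controls (-0.06 ± 0.21), nor did time of day after light reach the threshold (0.34 ± 0.25, limma adjusted p = 0.76). Both long day pools lay above both of their controls, with a difference of 0.80 ± 0.29 (limma adjusted p = 0.164). That difference fell to 0.32 with quantile normalization, to 0.37 with arrays scaled to 1 SD and to 0.36 against all 4 ZT14 dark pools. The early-night difference was 0.28 ± 0.29, and 0.71 against all 4 ZT14 dark pools (limma adjusted p = 0.134), and the light effect of the late night minus that of the long day -0.86 ± 0.36 (limma adjusted p = 0.303).

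The ZT14 dark controls of the 2 paradigms, nominally alike in treatment, also separated for SOX9. Paradigm 3 lay below paradigm 2 by -0.87 ± 0.29 (limma adjusted p = 0.0509), and by only -0.05 with quantile normalization and -0.16 with scaled arrays. Beside SOX9, the mean ratio of 6 pinealocyte marker genes was -0.59 to -0.45 in the paradigm 3 dark pools, -0.28 to -0.20 in those of paradigm 2 and -0.18 to 0.07 in ZT0 dark pools. The mean ratio of 12 wider astrocyte genes ran the other way, at 0.17 to 0.36, 0.07 to 0.15 and 0.06 to 0.13 in the same order. Gene by gene they were mixed. For paradigm 3 minus paradigm 2 dark pools, 5 of the 12 were positive and 7 negative (median -0.04). The part of these markers and of the wider spread of the paradigm 3 arrays in the SOX9 result was not tested.

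**Figure D3:**
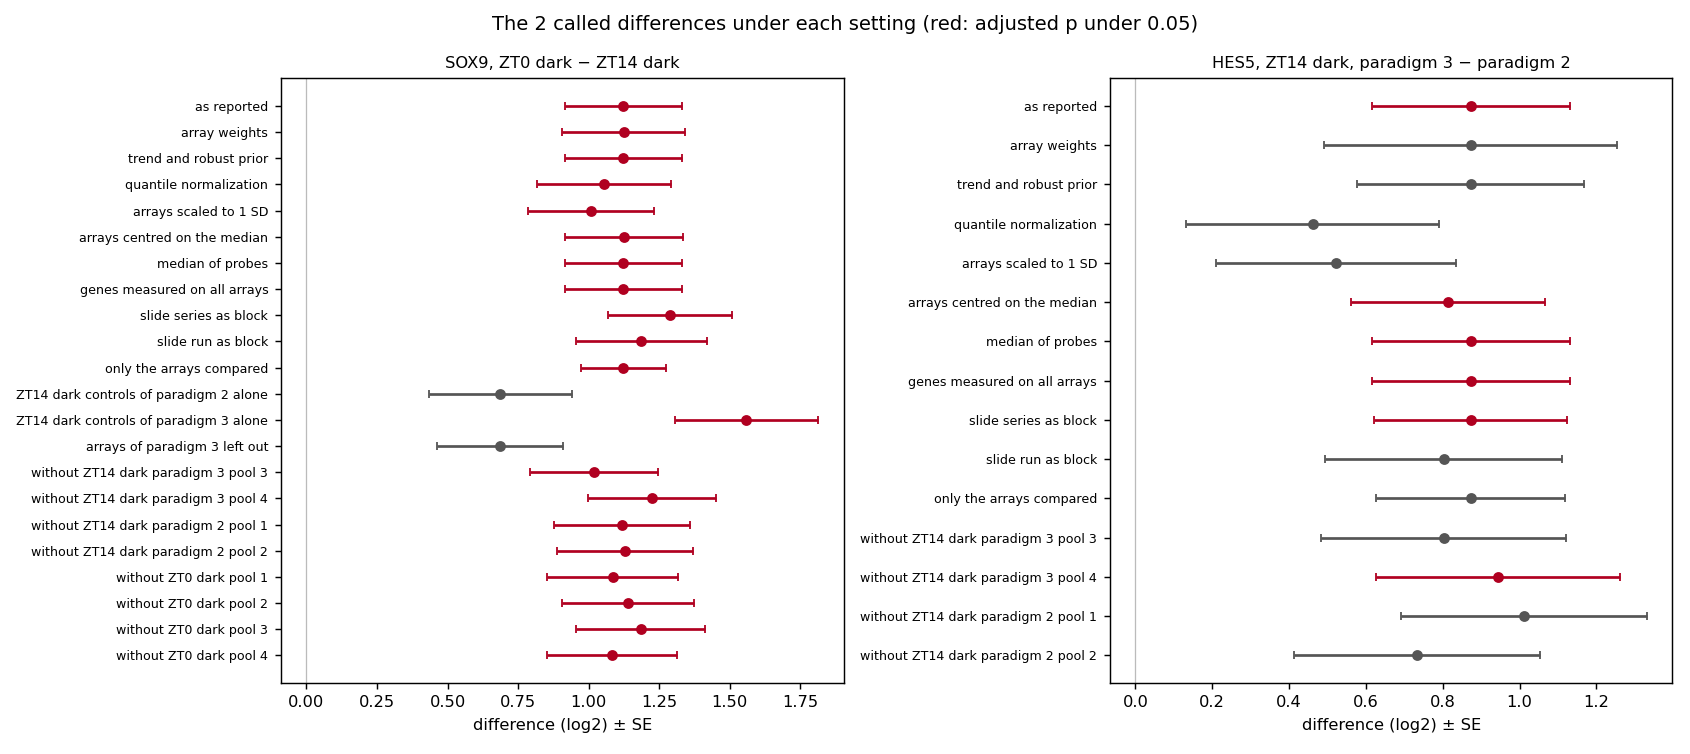
The 2 called differences (log2, point and SE) under each setting, SOX9 for ZT0 dark minus ZT14 dark and HES5 for paradigm 3 minus paradigm 2 dark controls; red marks an adjusted p under 0.05. SOX9 loses its call only where paradigm 3 is left out or replaced by paradigm 2 controls (0.69), while HES5 loses it in 9 of the 14 alternatives drawn.

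HES5, a repressor that is transcribed when Notch receptors are activated, had ratios of 0.02 and -0.26 in the paradigm 2 dark pools and 0.82 and 0.68 in those of paradigm 3. These groups, which had the same labelled light cycle and time, did not overlap. The difference was 0.87 ± 0.26 (limma adjusted p = 0.0292), a 1.83-fold ratio. It was 0.46 after quantile normalization and 0.52 with scaled arrays, where the limma adjusted p was 0.541 and 0.441. Without paradigm 2 pool 1, paradigm 2 pool 2 or paradigm 3 pool 3 the call was lost too (limma adjusted p = 0.0559, 0.172 and 0.105). Groups did not overlap in 6 of 8 members between these controls, against 57.8% of all genes.

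Beside HES5, markers of other cells differed between the same controls. The mean ratio of 7 choroid plexus and ependyma genes was 0.27 to 0.46 in the paradigm 3 dark pools and -0.35 to -0.04 in those of paradigm 2. Of these 7 genes 5 were positive and 2 were called, against 20.6% of all genes. The called cilium genes CCDC113 and DNAH9 were higher by 1.97 ± 0.25 and 1.07 ± 0.23 (limma adjusted p = 0.000328 and 0.00666). Their part in the HES5 difference was not tested.

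Early-night light pools had HES5 ratios of 0.73 and 0.32, both above their controls, and the difference of 0.65 ± 0.26 did not pass over all genes (limma adjusted p = 1). It was 0.21 when all 4 ZT14 dark pools served as controls. Long day pools, at 0.93 and 0.35, bracketed theirs (-0.12 ± 0.26). Late-night light pools stood at 0.58, 0.13, 0.52 and -0.03, and ZT0 dark pools at 0.38, 0.33, 0.46 and 0.15. The late-night groups overlapped and differed by -0.03 ± 0.18. The late-night effect minus the early-night effect was -0.68 ± 0.32 (limma adjusted p = 1) and the long day effect minus the early-night effect -0.76 ± 0.36 (limma adjusted p = 0.488). For time of day in darkness HES5 had 0.45 against paradigm 2 controls and -0.42 against paradigm 3 controls, with a difference of 0.02 ± 0.18 over both. With paradigm 3 left out it was 0.45 ± 0.20 (limma adjusted p = 0.32).

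ID4, a helix-loop-helix protein without a DNA-binding region that blocks other such factors and is induced by BMP in neural progenitors, varied widely between pools of one treatment. Late-night light pools stood at -0.04, -0.14, 1.36 and -0.08, and their controls at 0.09, -0.23, -0.11 and -0.51. Pool 3 alone was high. The difference of 0.46 ± 0.33 fell to 0.10 without that pool. Early-night light pools had -0.12 and 0.17, both above their controls at -0.74 and -0.14 (0.47 ± 0.46). Long day pools, at 0.11 and -0.80, overlapped the paradigm 3 controls at -0.47 and -1.06 (0.43 ± 0.46). For time of day in darkness ID4 had 0.42 ± 0.33 (limma adjusted p = 0.399), and 0.26 ± 0.38 without paradigm 3. The residual SD of ID4 within groups, 0.507, was larger than that of 82.7% of genes, whose median was 0.321.

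S100B, a calcium-binding protein of astrocytes and of rat pineal interstitial cells, had the widest range among the members, with a residual SD of 0.600 that exceeded 90.2% of genes. Ratios were 0.27, 0.27, 0.98 and -0.22 in late-night light and 0.32, 0.16, 0.04 and -0.32 in ZT0 dark pools. Early-night light pools had 0.04 and -0.13, and their controls -0.04 and -0.51. All these groups overlapped. In paradigm 3 one pool of each group was far below the other: -1.53 and 0.05 in the long day, and -0.22 and -1.82 in the controls. The light differences were 0.28 ± 0.38, 0.23 ± 0.54 and 0.28 ± 0.54, in the order of paradigms 1, 2 and 3. Each was smaller than its SE, which includes the spread of the paradigm 3 pools. With paradigm 3 left out, paradigms 1 and 2 gave 0.28 ± 0.24 and 0.23 ± 0.33 (limma adjusted p = 0.849 and 0.998). ZT0 minus ZT14 dark pools gave S100B 0.70 ± 0.38, which did not pass the test (limma adjusted p = 0.225), and 0.32 ± 0.29 with paradigm 3 left out. With slide run as a block, meaning 3 stretches of the numbers in the array file names, the difference was 1.36. The labels do not call these stretches batches. The other paradigm 3 arrays share a stretch with no array of another paradigm. Control pool 4 (-1.82) alone therefore set the level of the paradigm 3 controls in that fit.

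VIM, the intermediate filament protein vimentin, was read by 2 probes that did not track each other. Their signs matched on 7 of 16 arrays, with a median gap of 0.36 and a largest gap of 0.79. Among 1330 genes with 2 probes, the median was 9 of 16 arrays and a gap of 0.31. Probes of a gene thus often differed in sign, and VIM was near the typical gene. SOX9 and HES5, the called members, had 1 probe each, which allows no such check. As a mean of both probes, VIM stood at -0.40 and -0.70 in the paradigm 3 dark pools, at -0.25 and 0.05 in the long day, and did not overlap between them (0.45 ± 0.23, limma adjusted p = 0.34). For the dark controls of paradigm 3 minus those of paradigm 2, at -0.02 and -0.36, probe Pat_11f6 gave -0.72 (limma adjusted p = 0.049) and probe C0004104_C15 gave 0.01. Early-night light pools had 0.39 and -0.23, which overlapped their controls (0.27 ± 0.23). Late-night light pools, at -0.21, -0.05, -0.11 and -0.09, lay within the range of ZT0 dark pools at -0.38, 0.04, -0.18 and -0.07 (0.03 ± 0.16). For time of day in darkness VIM had 0.22 ± 0.16, and 0.04 ± 0.19 without paradigm 3.

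**Figure D4:**
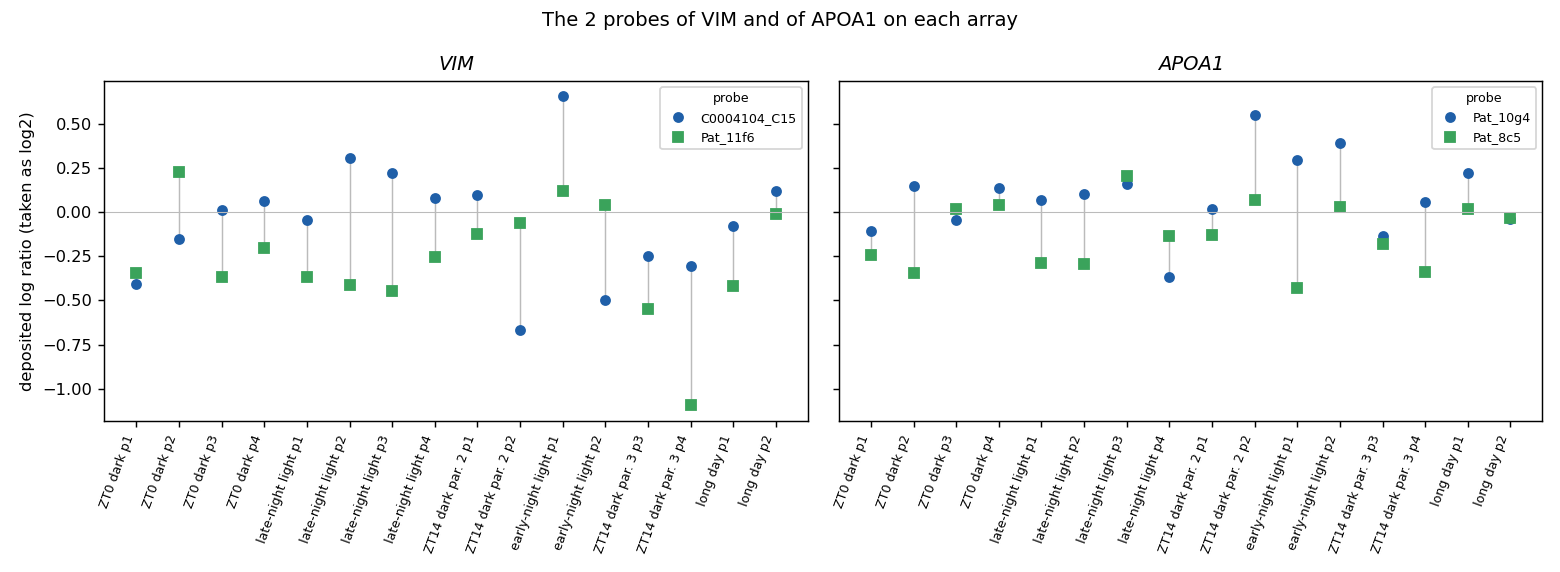
Log ratio (taken as log2) of the 2 probes of VIM and of APOA1 on each of the 16 arrays, with a grey line joining the pair. The gaps reach 0.79 for VIM and 0.72 for APOA1, and the signs match on 7 and 9 arrays.

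GJA1, the main gap junction protein (connexin) of astrocytes, had its highest ratios in early-night light pools, 0.40 and 1.04. Their controls had 0.15 and 0.38, just below. The difference was 0.45 ± 0.25 (limma adjusted p = 1), and 0.70 against all 4 ZT14 dark pools (limma adjusted p = 0.0926). Paradigm 3 controls had -0.33 and -0.13, and the long day pools 0.07 and -0.13, without overlap but with a difference under its SE (0.20 ± 0.25). Late-night light pools stood at 0.02, 0.12, 0.31 and -0.10 and ZT0 dark pools at -0.05, -0.27, 0.16 and 0.33, with broad overlap (0.04 ± 0.18). After light, GJA1 was the only member without overlap between times, all 4 ZT0 pools lying below both ZT14 pools (26% of all genes did not overlap). That difference was -0.63 ± 0.22 (limma adjusted p = 0.327). In darkness the time-of-day difference was 0.02 ± 0.18, and -0.22 ± 0.22 without paradigm 3.

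CLU, clusterin, a secreted chaperone that also travels on lipoproteins, had narrow ranges in 5 of the 6 groups. Early-night light pools had 0.10 and 0.24, their controls 0.12 and 0.31, long day pools 0.06 and 0.10, and paradigm 3 controls -0.11 and -0.02. ZT0 dark pools stood at -0.11, -0.0042, 0.08 and 0.05. In late-night light pools 1 to 3 had -0.07, 0.15 and 0.16, whereas pool 4 had -0.86. The late-night difference was -0.16 ± 0.19, and 0.07 ± 0.13 without pool 4. The long day difference, between groups that did not overlap, was 0.15 ± 0.27. The early-night difference was -0.04 ± 0.27 and that for time of day in darkness -0.07 ± 0.19, or -0.21 ± 0.25 without paradigm 3.

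APOA1, the main protein of high-density lipoprotein, varied least, with a residual SD of 0.160 that only 9.3% of genes undercut. Ratios were -0.11, -0.10, 0.18 and -0.25 in late-night light and -0.17, -0.10, -0.01 and 0.09 in ZT0 dark pools. They were -0.07 and 0.21 in early-night light and -0.06 and 0.31 in its controls, 0.12 and -0.03 in the long day and -0.16 and -0.14 in its controls. The long day was the only light group that did not overlap its controls (0.19 ± 0.20, limma adjusted p = 0.723). The other differences were -0.02 ± 0.14 for late-night light, -0.06 ± 0.20 for early-night light and -0.04 ± 0.14 for time of day in darkness (-0.18 ± 0.17 without paradigm 3). Its 2 probes matched in sign on 9 of 16 arrays.

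Late-night light pools 3 and 4 lay at opposite ends across the members. Pool 3 was above 0 in 7 of 8 genes and the highest of paradigm 1 in 5, and pool 4 was above 0 in none and the lowest in 4. Over all probes the SD of the log ratio was 0.338, 0.325, 0.480 and 0.514 on late-night light pools 1 to 4. It was 0.302, 0.248, 0.449 and 0.546 on ZT0 dark pools 1 to 4. The share of all genes highest or lowest on each array was not counted. Late-night light pool 4 and ZT0 dark pools 3 and 4 carried file numbers of a second series, which the labels do not call a batch. Within the first series the late-night difference was 0.08 for SOX9, 0.27 for S100B, 0.14 for CLU, 0.31 for GJA1, 0.05 for VIM, 0.05 for HES5, 0.46 for ID4 and 0.13 for APOA1. Within the second series, with 1 light pool, it was -0.55, -0.07, -0.92, -0.35, 0.04, -0.34, 0.23 and -0.29 in the same order. VIM and ID4 alone had the same sign in both. The second series, with 1 light and 2 dark pools, allows no useful test. The part of the slide series in these values was not tested. No member separated late-night light from its controls, where 4.59% of all genes did. After early-night light the groups did not overlap for SOX9, GJA1, HES5 and ID4, 4 of 8 members against 35.2% of all genes. In the long day SOX9, CLU, GJA1, VIM and APOA1, 5 of 8, did not overlap their controls against 35.8% of all genes. Of these 5 differences, those of CLU, GJA1 and APOA1 were smaller than their SE.

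By group mean, SOX9 ran from ZT0 dark through late-night light, early-night light, ZT14 dark of paradigm 2 and the long day to ZT14 dark of paradigm 3. Neighbours in that order overlapped except early-night light above paradigm 2 controls, and the long day above paradigm 3 controls. HES5 ran from ZT14 dark of paradigm 3 down to ZT14 dark of paradigm 2, with the long day, early-night light, ZT0 dark and late-night light between, and each neighbour overlapped the next. The paradigm 3 dark pools had the lowest mean of SOX9, S100B, GJA1, VIM, ID4 and APOA1. Their arrays had the widest log ratios (SD 1.08 and 0.96), and the share of all genes lowest there was not counted. With quantile normalization their differences from the paradigm 2 dark pools were -0.05, -0.21, -0.48, -0.08, 0.20 and -0.24 in that order. CLU was lowest in late-night light and HES5 in ZT14 dark of paradigm 2.

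The genes whose ratios followed each member most closely over the 16 arrays, among 6641 genes with a symbol and a value on every array, were given by Pearson's r as a description. SOX9 was nearest to GATC (0.920) and TTI2 (0.910), S100B to PRKAG1 (0.943) and C10orf88 (0.938), and ID4 to ZNF512 (0.904) and LOC418170 (0.823). CLU was nearest to CBLN1 (0.879) and KALRN (0.864), GJA1 to OLA1 (0.863) and RGR (0.851), and HES5 to AMOT (0.849) and KBTBD11 (0.828). VIM was nearest to RAB19 (0.796) and FCRL2 (0.766), and APOA1 to KIAA0232 (0.810) and RASGRP1 (0.771). None of these partners is another member. On the 12 arrays outside paradigm 3, the first-named partner had 0.746 for SOX9, 0.861 for S100B, 0.873 for ID4 and 0.908 for CLU. For GJA1, HES5, VIM and APOA1 it had 0.823, 0.826, 0.570 and 0.796. With group means taken out over all 16 arrays, these pairs ran from 0.552 (SOX9) to 0.942 (S100B). Partners were picked for the highest r among 6641 genes on these same arrays, so all these values are raised by that choice. These arrays share a reference.

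Genes of the pathways around the members, from lists named for each role, were set beside them. No gene of any list was called after late-night or early-night light. Of 12 wider astrocyte genes, 9 had a negative difference in the long day (median -0.26, members 0.24) and 8 for time of day in darkness (median -0.24, members 0.12). For time of day 0 of the 12 were called, against 19% of all genes. In the long day 1 of the 12 was called, against 2.94% of all genes: DBI, an acyl-CoA-binding protein abundant in glia, was lower (-1.60 ± 0.35, limma adjusted p = 0.031). Every long-day call given here and below, over all lists, was lost with array weights, quantile normalization, arrays scaled to 1 SD or only the arrays compared, where 0 genes were called. DIO2, the deiodinase that activates thyroid hormone, and the transcription factor PAX6 were higher in paradigm 3 than in paradigm 2 dark pools (0.85 ± 0.27 and 1.21 ± 0.38, limma adjusted p = 0.0418 and 0.0373). That is 2 of the 12, against 20.6% of all genes. Every dark-control call in these lists, above and below, was lost with only the arrays compared, where 0 genes were called. That setting has 2 pools per group and also called 0 genes for early-night light and the long day. Its loss of a call therefore says little about a single gene. SLC1A2 had -0.10 after late-night light, 0.05 after early-night light, -0.71 in the long day and -0.34 for time of day in darkness (0.03 without paradigm 3), and was called in none of them.

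Of 15 genes of the Notch pathway, a list that does not count HES5, 1 was higher and 4 were lower in ZT0 than in ZT14 dark pools. There 19% of all genes were called. The receptor NOTCH2 stood at -0.46, 0.08, 0.31 and -0.05 in ZT0 dark pools, at 1.51 and 1.20 in the ZT14 dark pools of paradigm 2 and at 4.73 and 1.16 in those of paradigm 3. All ZT0 pools lay below all ZT14 pools, with a difference of -2.18 ± 0.54 (limma adjusted p = 0.0138), and one paradigm 3 pool was far above the rest. With paradigm 3 left out NOTCH2 had -1.38 ± 0.24 (limma adjusted p = 0.0618). The ligands JAG2 (-0.82 ± 0.20) and DLL4 (-0.91 ± 0.25) and the target HEY2 (-0.64 ± 0.21) were lower too, and the protease ADAM10, which cleaves Notch receptors, was higher (0.60 ± 0.19). Without paradigm 3 their differences were 0.26, -0.49, -0.05 and 0.25, none called. Between the dark controls of paradigms 3 and 2, 2 of the 15 were called, against 20.6% of all genes. JAG2 and HEY2 were higher in paradigm 3, by 2.18 ± 0.28 and 1.20 ± 0.30 (limma adjusted p = 0.000382 and 0.0138). NOTCH1, HEY1 and HES4 had -0.19, 0.38 and 0.25 for time of day in darkness, and -0.16, 0.44 and 0.55 without paradigm 3, and were not called.

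Of 12 genes of BMP signalling and the ID family, BMP4 and BMP6, secreted ligands, were higher in ZT0 than in ZT14 dark pools, and BMP5 was lower. That is 3 of 12, near the 19% of all genes called there. BMP4 had 0.02, -0.02, 0.35 and 0.67 in ZT0 dark pools, -0.59 and -0.90 in paradigm 2 and -2.06 and -1.52 in paradigm 3 controls. Its ZT0 pools all lay above its ZT14 pools (1.52 ± 0.21, limma adjusted p = 0.000884, and 1.00 ± 0.25 without paradigm 3, limma adjusted p = 0.155). BMP6 had 1.12 ± 0.23 and BMP5 -0.59 ± 0.17, and 0.41 and -0.03 without paradigm 3. BMP6 was also higher in the long day (1.69 ± 0.32, limma adjusted p = 0.015). Its long day pools had 0.50 and -0.19, their controls -2.11 and -0.96, and the paradigm 2 dark pools -0.02 and -0.22. Between the dark controls, 1 of the 12 was higher and 2 were lower in paradigm 3, against 20.6% of all genes called. BMP5 had 1.13 ± 0.23, BMP4 -1.04 ± 0.30 and BMP6 -1.42 ± 0.32 (limma adjusted p = 0.00544, 0.0263 and 0.00868). ID3 had 0.01 for time of day in darkness (-0.25 without paradigm 3) and was not called.

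Of 7 gap junction genes, the connexin GJA5 was lower in ZT0 than in ZT14 dark pools (-0.85 ± 0.24), and GJA5 and GJB1, a connexin of myelinating cells in mammals, were higher in paradigm 3 than in paradigm 2 dark pools (1.56 ± 0.34 and 1.09 ± 0.31). Of 11 lipoprotein genes, APOA4 was higher at ZT0 (0.77 ± 0.17) and CETP, which exchanges lipids between lipoproteins, was lower (-0.87 ± 0.24), and PLTP, a phospholipid carrier, was higher in the long day (1.12 ± 0.24). APOB and CETP were higher, and LRP1 and APOA4 lower, in paradigm 3 than in paradigm 2 dark pools (1.28, 1.18, -1.69 and -0.98). Of 6 intermediate filament genes, SYNC and LMNB2 were higher at ZT0 (0.68 ± 0.17 and 1.00 ± 0.28). Without paradigm 3 the time-of-day differences were -0.07 for GJA5, 0.28 for APOA4, -0.27 for CETP, -0.04 for SYNC and 0.49 for LMNB2, and none was called. LCAT had 0.25 for time of day in darkness (0.30 without paradigm 3) and was not called. These lists are to be read against the 19% of all genes called for time of day, the 20.6% called between the dark controls and the 2.94% called in the long day. Of 3 other SOX genes SOX17 was higher in paradigm 3 than in paradigm 2 dark pools (0.71 ± 0.18), and SOX10, a factor of myelinating glia, had -0.41 for time of day (-0.57 without paradigm 3) and was not called. No other S100 gene was analysed here.

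Among markers of other cells, 1 of 6 pinealocyte genes was higher and 1 lower at ZT0 in darkness, against 19% of all genes called. They were GCH1, which starts the synthesis of the tetrahydrobiopterin cofactor (0.87 ± 0.24), and TPH1, the first enzyme from tryptophan towards serotonin (-0.51 ± 0.16). One gene passed in each of the neuron (TH, -1.27 ± 0.26), choroid and ependyma (CCDC113, -1.35 ± 0.17), vascular (RGS5, -1.31 ± 0.24), fibroblast (FAP, 0.77 ± 0.16) and erythroid (RHAG, 0.63 ± 0.15) lists. None passed among 8 oligodendrocyte and Schwann cell, 11 macrophage and 9 lymphoid genes. Without paradigm 3 none of these genes was called for time of day in darkness. In the long day the VEGF receptor KDR (2.36 ± 0.53) and TIMD4, a macrophage receptor for dying cells (3.54 ± 0.47), were higher, against 2.94% of all genes called. The pericyte gene RGS5 (-1.64 ± 0.34), CCDC113 (-2.22 ± 0.25) and the transcription factor NEUROD1 (-1.67 ± 0.41) were lower. Over their whole lists, 5 of 6 pinealocyte genes were positive, and 7 of 11 macrophage, 6 of 10 vascular and 4 of 7 choroid and ependyma genes were negative. Between the dark controls 20.6% of all genes were called. QKI (-1.46), ISL1 (-1.06), KDR (-2.15), FAP (-0.69), RHAG (-0.79) and HBBA (-1.23) were lower and the endothelial receptor TEK (0.52) higher in paradigm 3. KDR stood at -3.37 and -0.98 in the 2 paradigm 3 pools. In their whole lists 7 of 10 vascular and 4 of 8 oligodendrocyte and Schwann cell genes were positive. Negative were 4 of 6 pinealocyte, 8 of 10 fibroblast and 3 of 3 erythroid genes. HBBA, a globin, was lower after late-night than after early-night light (-2.13 ± 0.30), where 0.0878% of all genes were called and 2 of 3 erythroid genes were positive. The part of these cell types in the SOX9 and HES5 differences was not tested.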

How the data were processed

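The Cy3-type dye always marked the pineal pool and the Cy5-type dye the common reference, so dyes were not swapped, per the labels' protocols. The authors deposited 1 log ratio per probe and array, taken here as log2 values since no ratio exceeds 10.1 in size. Not given in the sources used here are the log base, the numerator, the background correction and the normalization. Array medians lay between -0.0439 and 0.0518. Without intensities the signal over background is unknown, and precision is limited by how many arrays there are.

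Of 15769 probes, 160 control spots (5 names with 32 spots each) were left out. The platform annotation gave 1 gene symbol to 9628 of the rest, several to 0 and none to 5981. All 8 member gene IDs matched the reference gene table with the same symbol. Probes of a gene were averaged, and a gene was kept with values on at least 2 arrays in each group. That removed 159 genes and kept 12532, of which 6660 had a symbol. Groups came from the labels.

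The fit used limma 3.58.1 under R 4.3.3 (lmFit, then contrasts.fit, then eBayes with a constant prior) with 1 mean for each of 6 groups, 10 residual and 3.33 prior degrees of freedom, and Benjamini-Hochberg adjustment at 0.05. The fit was tested on simulated data. Groups of 2 pools borrow the spread of the other groups. Named were all 8 members and their probes, up to 4 called genes of each list per comparison, the measured astrocyte markers and relatives of the members, and for each member the 2 genes with the highest Pearson r. Members and lists were chosen with earlier results of these data known. Alternatives covered array weights, the prior, normalization, scaling, centring, probe summaries, slide blocks, replicate numbers, control sets and leaving out each pool. Leaving out paradigm 3 was added after the data were seen. No sequence or coordinate of the probes was used here.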

Additional observations from a re-analysis of the deposited data

Results flagged for a closer look

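ID4 in late-night light pool 3 had a log ratio of 1.36, while the other 3 pools of that group lay between -0.14 and -0.04. Its gap to the nearest pool, 0.93 of the group's range, exceeds Dixon's 95% critical value for a group of 4. Both groups of 4 pools were examined for each of the 8 genes, and chance alone passes this limit in about 1 of 20 groups. S100B was also highest in that pool, at 0.98, without passing the limit.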

How the results depend on the processing

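For the light comparisons, 0 of 8 members were called under every alternative run. With the replicate block, 0 of 8 members and 0 genes were called for late-night light and 0 of 8 and 0 for early-night light. The pool numbers were not taken as pairs. Same-numbered pools of paradigm 1 correlated at 0.308, 0.190, 0.00182 and 0.317 in their deviations, and not every pool was closest to its own number. In paradigm 2, with 2 pools per group, deviations mirror each other, so both pairs must share a single value (0.119) that cannot decide the pairing. The long day shares no pool numbers with its controls.

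For time of day in darkness, the 1 called member became 2 with the slide run as block (S100B joined SOX9), and 0 with paradigm 2 controls alone or with paradigm 3 left out. The slide run block leaves pool 4 alone to set the level of the paradigm 3 controls. Leaving out single pools gave 1 to 1. For the dark controls of paradigms 3 and 2, the 1 called member became 0 with array weights, a trended robust prior, quantile normalization, scaled arrays, the slide run as block or only the arrays compared. It became 2 with median centring, the slide series as block or probes tested one by one, and ran from 0 to 2 without single pools. SOX9 was the second gene with centring (-0.93, limma adjusted p = 0.0395), the slide series block (-0.87, 0.0387) and without paradigm 3 pool 4 (-1.08, 0.0403). Among differences larger than their SE, signs turned for SOX9 in the long day minus early-night effect with quantile normalization (0.52 to -0.0539), and for VIM between dark controls with probe C0004104_C15 alone (-0.36 to 0.00997). They also turned for S100B between dark controls without paradigm 3 pool 4 (-1.54 to 0.0534 over single pools) and for VIM in early-night light without light pool 1 (-0.0388 to 0.58). The cause was not tested. Of 1388 values for single genes, 1372 kept their side of the threshold, 11 lost a call and 5 gained one. The sign differed from the reported one in 133, of which 0 were called either way and 129 belong to differences under their own SE.

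Counts over all genes moved more. For the dark controls 2583 genes were called, and 772 with array weights, 29 with scaled arrays, 22 with quantile normalization and 0 with only the arrays compared (2 pools per group). For time of day in darkness 2385 were called, and 1528, 925, 888 and 1715 under the same settings, 1185 with the slide series block, 4265 with paradigm 3 controls alone, 4 with paradigm 2 controls alone and 8 without paradigm 3. For the long day 369 were called, and 0 with array weights, scaled arrays, quantile normalization or only the arrays compared. With the slide run block the long day is in effect set against paradigm 3 control pool 3 alone, so no count is given.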
